A study of Mus musculus with 12 samples.

Results

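Ribosome biogenesis factors are the proteins that copy, trim and fold ribosomal RNA in the nucleolus and join it to ribosomal proteins. The group described here holds 47 named genes out of 21887 protein-coding genes on the assembled chromosomes. They were chosen for what their products do, though with earlier results of these data known. All 47 were found in the gene annotation. A gene was counted as carrying a transcription factor when a peak shared at least 1 bp with its mm10 extent plus 1 kb on either side.

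The peaks come from chromatin immunoprecipitation and sequencing (ChIP-seq) of MYC and its partner MAX in RAW264.7, an established mouse macrophage-like line able to form osteoclasts. Cells were untreated, or kept for 4 h with RANKL (50 ng/ml), with a BET bromodomain inhibitor labelled I-BET (500 nM), or with RANKL plus I-BET. Each antibody has 1 peak list per treatment, so a difference between treatments has no replicate check and no p-value is given. The 4 input libraries have no list in the files and were not used. The MYC lists held 312, 299, 136 and 11 peaks in the order untreated, RANKL, I-BET and RANKL plus I-BET, and the MAX lists 8839, 10889, 36785 and 6307. Read depth is unknown from these files, and whether list length follows depth was not tested. Peak lists give no RNA level, so the identity of the cells was not checked. Intervals are exact Clopper-Pearson 95% intervals and cover counting error only.

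MYC is a classic activator of ribosome production. It binds DNA as a pair with MAX, preferring the E-box CACGTG and the variant CACGCG, and MAX also pairs with the MXD, MNT and MGA proteins at the same letters. RNA polymerase I copies the ribosomal RNA precursor, the small subunit processome folds and cuts its first part, late factors finish the small subunit in the cytoplasm, and a separate set of proteins builds the large subunit. BET proteins read acetylated histones, and their inhibitors are known to lower MYC transcription in many blood cell lines.

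The 6 promoters below belong to the factors with the highest-ranked untreated MYC peaks among those listed both in untreated and in RANKL-treated cells and present in the RefSeq promoter table. The last 2, Pno1 and Pes1, were added after their values were seen, because they had the highest-ranked MAX peaks of all the factors and no MYC peak. Each runs from 250 bases before to 50 after an annotated start, 5′ to 3′, from GRCm38.p6 (the mm10 assembly), and capitals mark the E-box CACGTG and the variant CACGCG, or the latter read on the other strand as CGCGTG.
Rrp1b (chr17:32035912-32036211, plus strand): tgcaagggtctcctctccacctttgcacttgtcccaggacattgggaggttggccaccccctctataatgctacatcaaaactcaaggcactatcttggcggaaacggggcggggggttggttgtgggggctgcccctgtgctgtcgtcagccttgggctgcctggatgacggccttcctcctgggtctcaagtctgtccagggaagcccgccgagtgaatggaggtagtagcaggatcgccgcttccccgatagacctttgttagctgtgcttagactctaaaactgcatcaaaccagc
Noc2l (chr4:156235765-156236064, plus strand): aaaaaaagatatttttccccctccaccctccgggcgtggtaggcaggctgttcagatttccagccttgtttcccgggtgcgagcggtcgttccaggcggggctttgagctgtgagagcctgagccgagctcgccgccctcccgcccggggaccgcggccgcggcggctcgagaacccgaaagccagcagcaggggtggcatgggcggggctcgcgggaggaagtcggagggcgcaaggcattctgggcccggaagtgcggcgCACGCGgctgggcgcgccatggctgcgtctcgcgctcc
Nolc1 (chr19:46075597-46075896, plus strand): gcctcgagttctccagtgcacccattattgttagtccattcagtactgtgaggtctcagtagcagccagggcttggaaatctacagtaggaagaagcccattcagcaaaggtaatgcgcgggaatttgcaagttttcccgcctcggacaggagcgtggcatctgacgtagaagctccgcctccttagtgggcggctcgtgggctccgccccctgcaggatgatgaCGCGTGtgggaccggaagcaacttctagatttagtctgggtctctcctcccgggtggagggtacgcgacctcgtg
Pa2g4 (chr10:128565885-128566184, minus strand): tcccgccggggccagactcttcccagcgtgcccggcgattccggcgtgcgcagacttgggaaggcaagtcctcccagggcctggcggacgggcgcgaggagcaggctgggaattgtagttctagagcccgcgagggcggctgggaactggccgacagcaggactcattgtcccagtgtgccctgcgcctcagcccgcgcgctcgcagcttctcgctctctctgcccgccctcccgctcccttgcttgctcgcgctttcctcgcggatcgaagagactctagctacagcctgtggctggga
Mybbp1a (chr11:72441077-72441376, plus strand): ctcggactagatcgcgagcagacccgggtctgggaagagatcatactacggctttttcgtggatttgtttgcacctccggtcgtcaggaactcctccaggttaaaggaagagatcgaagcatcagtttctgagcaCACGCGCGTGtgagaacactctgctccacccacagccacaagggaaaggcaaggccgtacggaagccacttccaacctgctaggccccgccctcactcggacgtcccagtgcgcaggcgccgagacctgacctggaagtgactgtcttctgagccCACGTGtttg
Ppan (chr9:20887925-20888224, plus strand): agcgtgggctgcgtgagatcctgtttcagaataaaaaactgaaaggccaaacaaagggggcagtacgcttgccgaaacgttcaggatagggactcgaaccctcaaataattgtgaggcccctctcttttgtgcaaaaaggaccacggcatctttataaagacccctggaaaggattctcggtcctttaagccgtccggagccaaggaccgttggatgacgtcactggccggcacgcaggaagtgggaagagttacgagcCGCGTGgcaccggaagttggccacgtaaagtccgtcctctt
Pno1 (chr11:17211540-17211839, minus strand): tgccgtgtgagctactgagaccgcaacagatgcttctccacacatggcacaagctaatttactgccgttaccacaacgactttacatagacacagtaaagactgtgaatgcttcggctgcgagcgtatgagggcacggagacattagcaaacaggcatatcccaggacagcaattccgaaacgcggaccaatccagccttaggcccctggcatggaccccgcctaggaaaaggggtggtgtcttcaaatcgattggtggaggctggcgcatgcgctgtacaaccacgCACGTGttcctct
Pes1 (chr11:3963725-3964024, plus strand): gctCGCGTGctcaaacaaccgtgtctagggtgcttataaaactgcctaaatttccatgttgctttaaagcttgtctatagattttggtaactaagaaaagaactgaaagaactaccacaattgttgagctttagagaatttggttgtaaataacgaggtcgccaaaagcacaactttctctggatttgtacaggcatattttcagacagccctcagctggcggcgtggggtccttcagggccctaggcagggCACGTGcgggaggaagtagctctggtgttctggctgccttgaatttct

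The letters and the peaks can be read against each other. Untreated MYC peaks covered 173 of the 300 bases at Noc2l, 61 at Nolc1, 219 at Pa2g4, 86 at Mybbp1a and 128 at Ppan. At Rrp1b the MYC peak covered 0 of them and began just inside the gene. The capital letters of Noc2l and Ppan and the CACGTG of Mybbp1a lay inside an untreated MYC peak. Rrp1b and Pa2g4 have none of the 3 words in this window. At Pno1 and Pes1 the MAX peak covered all 300 bases, with CACGTG starting 37 and 2 bases after the annotated start.

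Of the 47 factors, 41 matched the promoter table (Bop1, Npm1, Tbl3, Rrp12, Rrs1 and Gnl2 did not). Both strands were searched, CACGTG being its own reverse complement. CACGTG occurred in 11 of the 41 (26.8%, 14.2 to 42.9), against 8.91% of the promoters of 17492 protein-coding genes. The 11 were Nop2, Grwd1, Utp4, Ltv1, Utp20, Pes1, Pno1, Mybbp1a, Tsr1, Rrn3 and Wdr43. CACGCG or CGCGTG occurred in 13 of 41 (31.7%, against 13.7%), and either kind of word in 22 of 41 (53.7%, 37.4 to 69.3, against 20.8%). Genes with an untreated MAX peak held CACGTG in 16.2% of promoters, and those with 1 of the 1000 highest-ranked MAX peaks in 27.2%. Of the 19 factors with such a high-ranked peak and a promoter in the table, 6 held it (31.6%, 12.6 to 56.6). That interval covers the 27.2%. The same 2 sets of genes held CACGCG or CGCGTG in 24.9% and 33.7% of promoters, and either kind of word in 37.1% and 52.4%. Of the 19 factors, 6 held the variant (31.6%) and 10 either kind (52.6%), near the shares of the high-ranked genes. CACGCG and CGCGTG overlapped each other at Mybbp1a and adjoined at Polr1c. A gene with several windows in the table (45 windows for the 41 genes) was counted once, if any window held the word.

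The words were spread over factors with and without MYC. Of the 13 factors with a MYC peak in untreated or RANKL-treated cells and a promoter in the table, 2 held CACGTG (Mybbp1a and Wdr43; 15.4%, 1.92 to 45.4). Of the 28 without a MYC peak 9 did (32.1%, 15.9 to 52.4), and the intervals overlap. For CACGCG or CGCGTG the order was the other way, 5 of 13 (38.5%, 13.9 to 68.4) with MYC and 8 of 28 (28.6%, 13.2 to 48.7) without. These intervals overlap too. Over all genes with a MYC peak in either list, 26.8% of 377 held CACGTG and 36.6% held the variant, both above the shares of all promoters. Of the 27 words found in the 22 promoters, 24 lay inside an untreated MAX peak, and 25, 27 and 21 did so in the RANKL, I-BET and RANKL plus I-BET lists. MYC peaks held 3 of the 27 words in untreated cells and 5 with RANKL. The same counts over all genes were not computed. The searched windows lie at gene starts, where the MAX peaks of the factors also lay. These counts alone therefore cannot show that the peaks prefer the words. A match is a run of letters and not a measured binding site.

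In untreated cells MYC was listed at 10 of the 47 factors (21.3%, 10.7 to 35.7), and 1.42% of all protein-coding genes had a MYC peak by the same rule. With RANKL it was listed at 13 (27.7%, 15.6 to 42.6; 1.35% of all genes). With I-BET alone it was listed at 0 of 47 (upper bound of the exact interval 7.55%, and 6.38% if a limit of 3 counts is used; 0.292% of all genes), and with RANKL plus I-BET at Noc2l alone (2.13%, 0.0539 to 11.3; 0.0366% of all genes). In all, 15 of the 47 factors had a MYC peak in some list. The share of all genes over the 4 lists together was not computed, and the single-list shares are not its match. Among genes with a promoter in the RefSeq table, 13 of 41 factors and 377 of 17492 genes had MYC in untreated or RANKL-treated cells. The 47 genes were chosen with results of these data known, so these shares describe the group and are not independent evidence that MYC favours it. The median extent of the factors was 12550 bp, against 17169 bp for all genes.

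**Figure D1:**
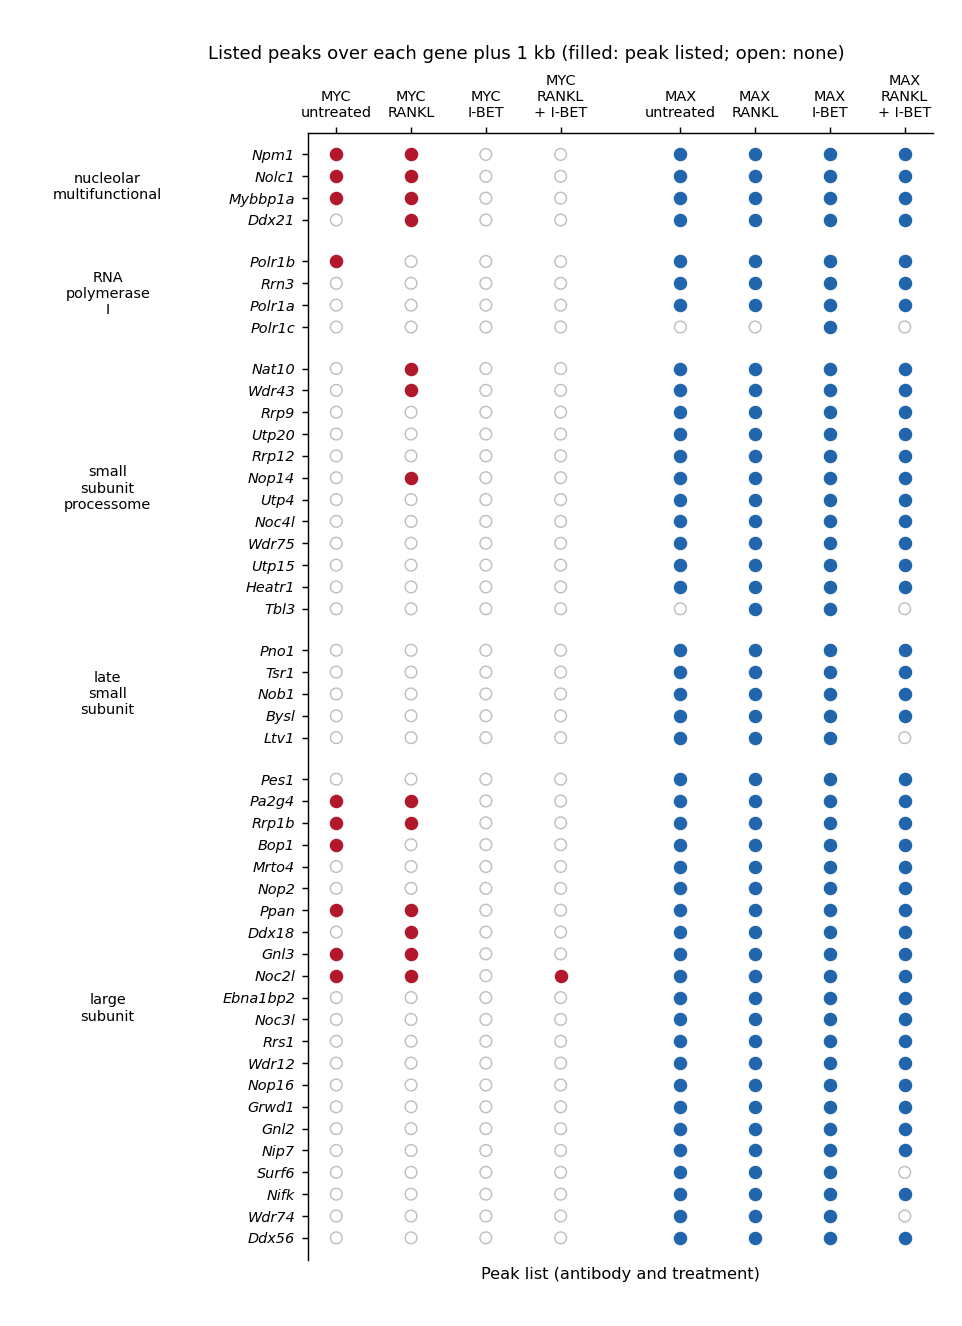
Peaks at each of the 47 ribosome biogenesis factors (rows, grouped by role and sorted by the rank of the untreated MAX peak) in the 8 peak lists (columns). Filled points mark a listed peak and open points none: MAX is filled in nearly every row, while MYC is filled in 10, 13, 0 and 1 rows.

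The roles were small groups and their MYC counts were not tested against each other; for each, the share of all genes was 1.42% untreated and 1.35% with RANKL. Among the nucleolar proteins with several functions, untreated cells had a MYC peak at 3 of 4, Npm1 (nucleophosmin, a nucleolar chaperone), Nolc1 (a chaperone of small nucleolar RNPs) and Mybbp1a (a nucleolar protein of ribosomal RNA processing), and RANKL-treated cells also at Ddx21 (an RNA helicase that links polymerase I to processing). The Npm1 peak ranked 113 of 312 by the authors' score in untreated cells and 84 of 299 with RANKL. It lay inside the gene (chr11:33162201-33162448 in untreated cells), 1818 bp from its upper-coordinate end. Nolc1 ranked 108 and 158 and Mybbp1a 179 and 190 in the same 2 lists. Ranks order peaks within 1 list, and a different rank in a second list is not read as a change.

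Large subunit factors had MYC at 6 of 22 in both lists. Rrp1b, a nucleolar protein of large subunit processing, had the highest-ranked MYC peak of any factor in untreated cells (rank 10, 276 bp, chr17:32036217-32036492). With RANKL its peak ranked 203 and was 336 bp wide. Noc2l, a relative of a yeast large subunit assembly factor, had 3 separate untreated MYC peaks, at ranks 39, 53 and 127, with centres 877, 512 and 45 bp after the promoter-table start, which lies 1360 bp inside the gene's extent. With RANKL a single peak, centred at 70 bp, was listed. Pa2g4 (a protein that binds the large subunit) had 2 untreated MYC peaks, centred 193 bp before and 687 bp after the start, and with RANKL the one before the start. Gnl3 (nucleostemin, a nucleolar GTPase) ranked 293 in untreated cells and 115 with RANKL, and Ppan (a factor of large subunit RNA processing) 204 and 144. Bop1 was listed in untreated cells alone (rank 76) and Ddx18, a helicase, with RANKL alone (rank 250). Bop1, Pes1 and Wdr12 form 1 complex of large subunit processing, and neither Pes1 nor Wdr12 had a MYC peak in any list.

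Of the 4 genes of RNA polymerase I and its initiation, Polr1b (the second-largest subunit) had a MYC peak in untreated cells (rank 268, 243 bp) and none with RANKL. Polr1a (the largest subunit), Polr1c (shared with polymerase III) and Rrn3 (the initiation factor) had none in any list. The small subunit processome had 0 of 12 in untreated cells and 3 of 12 with RANKL: Nat10 (an RNA acetyltransferase, rank 178), Nop14 (rank 268) and Wdr43 (rank 255). All 5 late small subunit factors, Bysl, Nob1, Tsr1, Ltv1 and Pno1, had no MYC peak in any list.

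**Figure D2:**
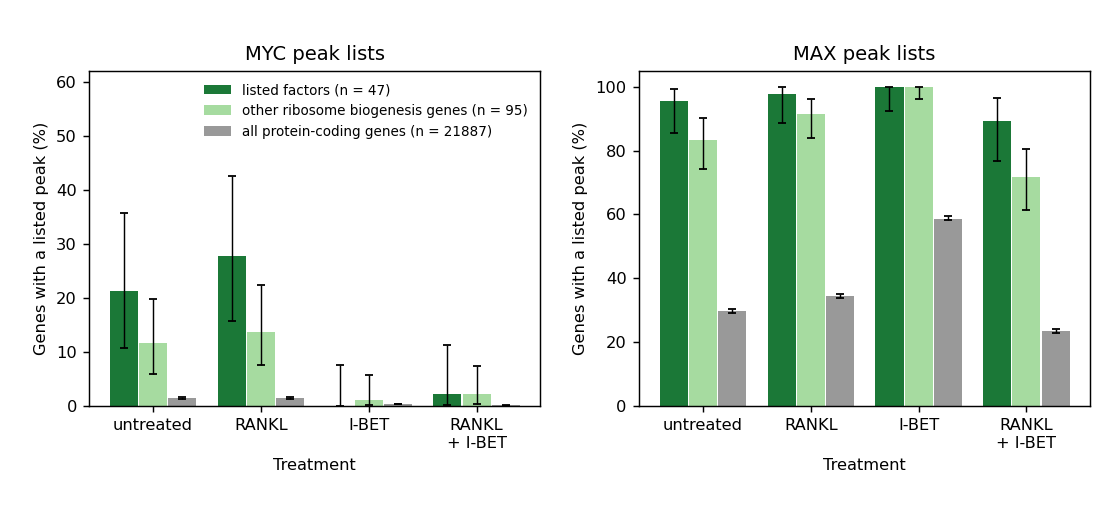
Share of genes with a listed MYC peak (left) or MAX peak (right), in percent, for the 47 factors, 95 other ribosome biogenesis genes and all 21887 protein-coding genes, by treatment. Bars start at 0 and error bars are exact 95% intervals for counting error; the MYC shares of the factors are 21.3%, 27.7%, 0% and 2.13%.

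MYC peaks of the factors lay close to annotated starts, meaning the nearest start in the promoter table, which can lie inside the gene's extent (by 1360 bp at Noc2l and 1684 bp at Nat10). Of the 8 factors with an untreated MYC peak and an annotated start, 8 had a peak reaching within 1 kb of it (78.4% of all such genes), and of the 12 with RANKL, 12 did (78.7%). The centre of the best-ranked peak lay within 250 bp of the start for 6 of the 8 and for 11 of the 12. That share was not computed over all genes. Farther in were Gnl3, with centres 1045 and 1117 bp after the start, and the best-ranked untreated Noc2l peak, at 877 bp. Npm1 and Bop1 have no start in the promoter table and are not counted here. A few peaks also touch the window of a neighbour: those of Gnl3 reach Pbrm1, that of Bop1 reaches Hsf1 and that of Nop14 reaches Grk4.

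**Figure D3:**
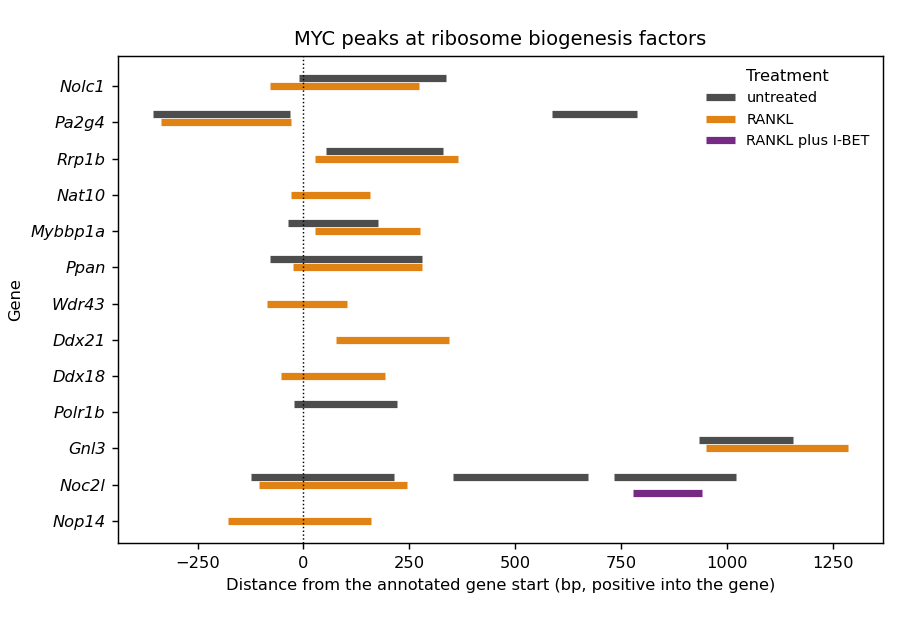
Position of each MYC peak (horizontal bars, to scale) at the 13 factors with an annotated start and a MYC peak; the horizontal axis is distance from the start in bp, positive into the gene, and colours give the treatment. Most bars lie near the start, and Gnl3 and the inner Noc2l and Pa2g4 peaks lie farther in.

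RANKL against untreated cells asks what early osteoclast induction does to these sites. Of the 10 factors with an untreated MYC peak, 8 had one again with RANKL (Noc2l, Ppan, Pa2g4, Npm1, Mybbp1a, Gnl3, Rrp1b and Nolc1) and 2 did not (Polr1b and Bop1). Over all genes with an untreated MYC peak, 51.9% had none with RANKL. New with RANKL were 5 of the 37 factors without an untreated peak (Ddx18, Nat10, Nop14, Ddx21 and Wdr43), against 0.677% of all genes without one. By position, 8 of the 13 untreated peaks at the factors overlapped a RANKL peak (61.5%; 46.7% over MYC peaks at all genes). The 5 new peaks stood at ranks 178 to 268 of 299 and the 2 absent ones at ranks 76 and 268 of 312. With peaks at or above the median score of each list, 5 factors had MYC in untreated cells and 3 with RANKL, so the larger RANKL count did not hold there.

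I-BET against untreated cells, and RANKL plus I-BET against RANKL, ask what BET inhibition does. All 10 factors with an untreated MYC peak lacked one with I-BET (91.3% of all such genes did). Of the 13 with RANKL, 12 lacked one with RANKL plus I-BET (97.6% of all such genes). Loss at the factors was therefore close to that of MYC peaks elsewhere. The RANKL plus I-BET list held 11 peaks, at 8 protein-coding genes, so nearly all genes had to lack one there. That comparison cannot tell the factors from other genes. The 136 peaks of the I-BET list had a median width of 72.5 bp and the 312 untreated ones of 260 bp; the part of this in the losses was not tested. The Noc2l peak listed with RANKL plus I-BET (rank 2 of 11, 163 bp, chr4:156236794-156236956) overlapped the untreated peak centred at 877 bp. It did not overlap the single RANKL peak of that gene, which ends at position 156236260.

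MAX was listed at nearly all of the factors. Untreated cells had a MAX peak at 45 of 47 (95.7%, 85.5 to 99.5; 29.8% of all protein-coding genes), RANKL-treated cells at 46 (97.9%; 34.5%), I-BET-treated cells at 47 of 47 (lower bound 92.5%; 58.7%) and cells with both at 42 (89.4%, 76.9 to 96.5; 23.5%). The 42 were listed in all 4 treatments, against 20.3% of all genes. Many of these peaks cannot be assigned to the factor alone. Of the 50 untreated MAX peaks, 21 (at 20 factors) also touched the window of another protein-coding gene. With RANKL, I-BET and both, 22, 24 and 18 factors had such a peak. The same share over all genes was not computed. The peaks lay at gene starts: with an annotated start, 40 of 40 untreated factors had a MAX peak within 1 kb of it (81.8% of all such genes), 39 of 40 with RANKL (82.7%), 41 of 41 with I-BET (87.0%) and 37 of 37 with both (81.1%). The exception with RANKL was Polr1a, whose untreated peak near the start (274 bp, rank 7539) had no RANKL counterpart. Its second untreated peak, 21163 bp into the gene (rank 7931), had one, centred at 21224 bp.

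Their MAX peaks ranked high. The best untreated MAX peak of a factor had a median rank of 1360 among 8839, against 3812.5 for all genes with a peak, and 21 of 45 factors had 1 of the 1000 highest-ranked peaks (46.7%; 15.1% of all genes with a MAX peak). With RANKL it was 20 of 46 (43.5%; 13.2%). The highest were Pno1 (rank 14, 708 bp), which works with the nuclease Nob1 on the small subunit, Pes1 (rank 40, 620 bp), Npm1 (rank 127), Nolc1 (rank 179) and Pa2g4 (rank 196). Pno1 stood at ranks 16, 111 and 24 in the RANKL, I-BET and RANKL plus I-BET lists, and Pes1 at 50, 149 and 101. The peak of Pno1 also touches the window of Wdr92. The lowest were Polr1a (rank 7539), Heatr1 (a processome subunit, 6780), Ddx56 (a large subunit helicase, 5453), Utp15 (a processome subunit, 4870) and Ltv1 (a small subunit export factor, 4847).

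**Figure D4:**
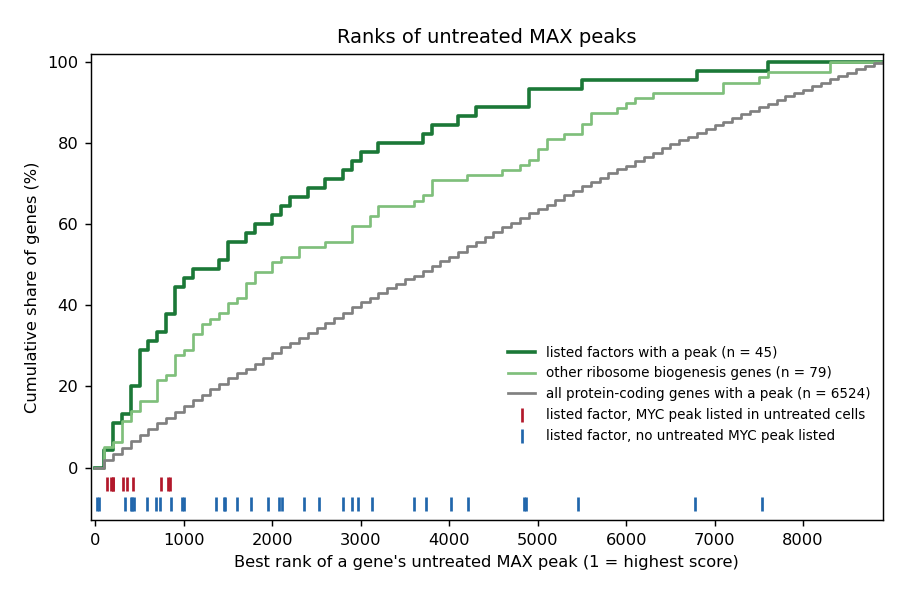
Cumulative share of genes (vertical axis, %) by the best rank of their untreated MAX peak (horizontal axis, 1 is the highest score) for the 45 factors with a peak, 79 other ribosome biogenesis genes and 6524 protein-coding genes; ticks under the curves mark single factors with and without an untreated MYC peak. The 10 factors with MYC sit between ranks 127 and 847, while Pno1 and Pes1, at ranks 14 and 40, have no MYC peak listed.

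MYC and MAX were listed together. All 13 untreated MYC peaks at the factors overlapped a MAX peak (95.9% over MYC peaks at all protein-coding genes), as did 13 of 13 with RANKL (98.0%) and the 1 with RANKL plus I-BET. With I-BET no factor had a MYC peak, and of the MYC peaks at other genes 24 of 59 overlapped MAX (40.7%). Among genes with an untreated MAX peak, MYC was listed at 10 of 45 factors (22.2%; 4.61% of all genes), and with RANKL at 13 of 46 (28.3%; 3.9%). Both shares move with MAX rank. Among genes with 1 of the 1000 highest-ranked untreated MAX peaks, 10 of 21 factors had MYC (47.6%), against 23.2% of all such genes. Below that rank it was 0 of 24 factors and 1.3% of genes. With RANKL it was 10 of 20 factors against 21.9% of genes at the high ranks, and 3 of 26 (Nop14, Ppan and Mybbp1a) against 1.16% below. The split at rank 1000 was chosen after the values were seen. Untreated factors with MYC had a median MAX rank of 337.5 and those without of 1950. Over all genes with an untreated MAX peak these medians were 422 and 4011.

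MAX peaks were wider in the I-BET list. The best untreated MAX peak of each of the 45 factors overlapped a peak in the I-BET list, which was wider at 44 of them, by a median factor of 1.68 (range 0.934 to 4.08). Over all genes with an untreated peak 99.0% were overlapped and 95.7% of those were wider, by a median factor of 2.02, so the counts at the factors were near the background. The exception was Ddx21 (1238 bp untreated and 1156 bp with I-BET). The largest ratios were those of Gnl3 (486 and 1982 bp, where 2 untreated peaks lay under 1 I-BET peak), Polr1a (274 and 1058 bp) and Nip7 (355 and 1314 bp), a large subunit factor. With RANKL the factor was 1.15 (1.13 at all genes), and with RANKL plus I-BET 0.941 (0.886). Peak width depends on read depth and on calling, whose part was not tested. The 2 factors without an untreated MAX peak, Tbl3 (a processome subunit) and Polr1c, both had one with I-BET (41.3% of all genes without an untreated peak did). The Polr1c peak (1073 bp, rank 5263 of 36785) also touches the window of its neighbour Yipf3.

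**Figure D5:**
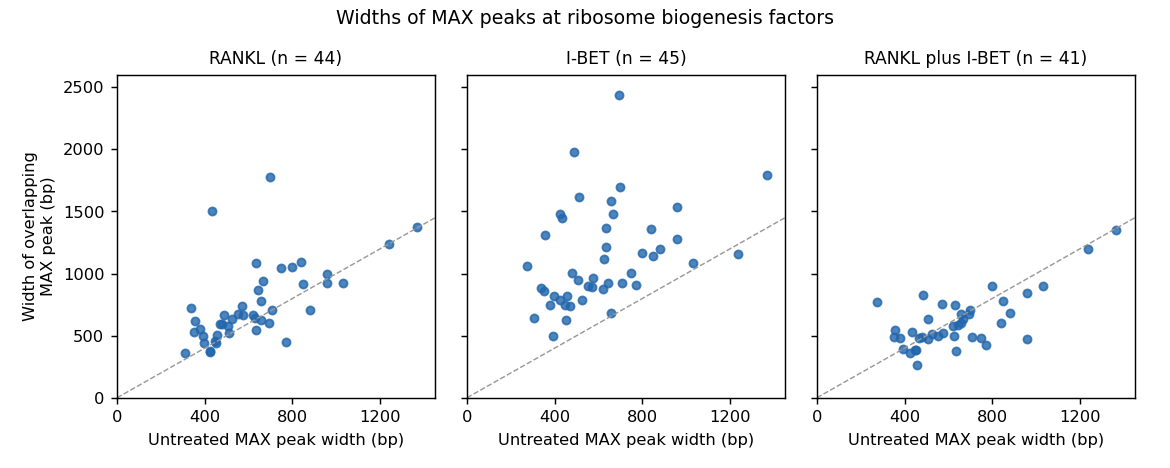
Width in bp of the best untreated MAX peak of each factor (horizontal axis) against the widest overlapping peak in the RANKL (n = 44), I-BET (n = 45) and RANKL plus I-BET (n = 41) lists (vertical axis); each point is a factor and the dashed line marks equal width. With I-BET 44 of 45 points lie above the line, and with RANKL plus I-BET 14 of 41.

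MAX was listed at nearly the same factors with RANKL as without. With RANKL all 45 again had a MAX peak in their window (9.81% of all genes with an untreated peak had none). The best untreated peak itself was overlapped at 44 of the 45. The exception was Polr1a, which had RANKL peaks only away from its start. Tbl3 was the 1 of 2 that gained a peak (10.8% of all genes without). The RANKL peak of Tbl3 was 350 bp wide and ranked 7320 of 10889. Heatr1 ranked 6780 of 8839 untreated and 1782 of 10889 with RANKL, with widths of 643 and 864 bp.

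RANKL plus I-BET had the fewest MAX peaks at the factors, and its list was also the shortest MAX list (6307 peaks). With the 6307 top-ranked peaks of each list, MAX was at 43, 43, 45 and 42 factors in the order untreated, RANKL, I-BET and both. At that setting the combination lost 3 factors and added 2 against RANKL. The counts that follow use the full lists. Of 46 factors with a RANKL peak 4 had none with the combination: Surf6 and Wdr74 (large subunit factors), Ltv1 and Tbl3 (36.0% of all genes lost theirs). Against I-BET alone Polr1c was also missing, 5 of 47 in all (60.0% of all genes). In the list of RANKL alone, Surf6 ranked 1927, Wdr74 4929, Ltv1 5650 and Tbl3 7320. Loss followed rank in all genes too: 16.2% of genes with a RANKL MAX rank of 5444 or better lost it, against 64.9% of those below, and for the factors it was 2 of 41 and 2 of 5. At Gnl2, a nucleolar GTPase, the gene kept a peak but at its other end. The untreated peak lay beside Dnali1 at the upper-coordinate end, both ends had one with RANKL and with I-BET, and with the combination the lower end alone did (384 bp, rank 4044).

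Other genes of the pathway carried both proteins too, with smaller shares in untreated and RANKL-treated cells. A second list of 95 ribosome biogenesis genes had MYC at 11 in untreated cells (11.6%, 5.92 to 19.8), at 13 with RANKL (13.7%), at 1 with I-BET and at 2 with both. The interval of the untreated share overlaps that of the 47 factors. The untreated 11 were Nop58, Ncl, Rrp15, Nop56, Gar1, Mak16, Krr1, Gtpbp4, Nol8, Riok2 and Dkc1. With RANKL, Utp3, Mphosph10, Tma16, Senp3 and Wdr36 were listed, and Rrp15, Mak16 and Dkc1 were not. Ncl (nucleolin) was listed in all 4 and Nop58 (a box C/D snoRNP protein) with the combination as well. MAX was listed at 79, 87, 95 and 68 of the 95 in the order untreated, RANKL, I-BET and both (83.2%, 91.6%, all and 71.6%).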

How the data were processed

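MYC and MAX peak lists of RAW264.7 cells were used, with 1 list per antibody and treatment, grouped by sample title. Each row of the deposited files gives a position, the names of joined peaks from 3 call sets and a score, the authors' own value, used here only for order and cut-offs inside 1 list. The submitters' processing notes name Bowtie2 2.3.4.1, FastQC, MACS2 2.1.1.20160309 and the builds GRCm38 and mm10. What the call sets are, how input was used and which thresholds applied was not given in the sources used here. In the I-BET MAX list 17 peaks have a score of 0 and rank last, none of them at a listed factor. Starts were raised by 1, on the assumption of BED coordinates.

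Genes and promoters are from RefSeq (GRCm38.p6), and a start is one given by the promoter table. The members and lists were chosen with earlier results of these data known. Genes given with values were those with a MYC peak in any list, those missing a MAX peak in any list and the 5 highest and 5 lowest by untreated MAX rank; any other gene was picked with its values known. Alternatives covered the window (no flank, 2.5 kb, gene ends, gene starts), peaks at or above each list's median score, peaks of at least 100 bp, 50% overlap and equal numbers of top peaks. No test between treatments was possible with 1 list each. Tools were matplotlib 3.10.9, scipy 1.17.1, pandas 2.3.3, numpy 2.4.6, bedtools 2.31.1 and Python 3.11.15. The overlap code was tested on simulated data and against bedtools.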

Additional observations from a re-analysis of the deposited data

How the results depend on the processing

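Of 194 recomputed counts, 160 stayed within 1.5 times the reported one. Some of these could not move. No listed peak at the factors was under 100 bp, so leaving such peaks out changed nothing. The MYC count of 0 with I-BET could not fall under a stricter setting. The counts of factors with a MAX peak stayed within 1.5 times the reported one in every list and setting. With peaks at or above the median score of each list MYC was listed at 5 factors untreated and 3 with RANKL, with 4 lost and 2 new under RANKL. There I-BET against untreated lost 5, RANKL plus I-BET against RANKL lost 3 and added 1, and 7 and 3 MYC peaks at the factors overlapped MAX. For MAX at that threshold, RANKL lost 1 and added 2, I-BET added 7, and the combination added 1 against RANKL and lost 11 against I-BET. With equal numbers of top peaks (6307 for MAX, 136 for MYC) MYC was at 5 and 2 factors, with 4 lost and 1 new under RANKL and 5 lost with I-BET. For MAX, RANKL then lost 2 and added 2, I-BET lost 2 and added 4, and the combination added 2 against either. The MYC list of 11 peaks was left out of that setting. With gene ends alone, MYC with RANKL plus I-BET was at 0 factors, and 0 were new against I-BET. With gene starts alone (41 factors), MYC lost 1 with RANKL, MAX lost 1 and added 0 with RANKL, I-BET added 1 and the combination added 1 against RANKL. Without flanks, MAX with RANKL added 2. Both E-box words in place of CACGTG alone raised the promoters from 11 to 22. The shorter lists hold fewer peaks by construction; for the window settings the cause was not tested. Read depth is unknown, so a factor without a listed peak is not shown to lack the protein.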

Other observations

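The I-BET list also held MAX peaks elsewhere along the factors. The I-BET list held 75 peaks over the 47 genes, with 21 genes carrying more than 1 and Polr1a carrying 5, while the untreated list held 50 peaks over 45 genes, with at most 2 per gene. More than 1 peak was carried by 44.7% of the factors with a peak under I-BET and 11.1% untreated, against 50.1% and 19.3% of all protein-coding genes with a peak, whose distinct peaks numbered 26615 and 7104. The RANKL and RANKL plus I-BET lists held 55 and 47. I-BET peaks inside genes included one centred 16889 bp into Heatr1 (422 bp, rank 9437) and one 5922 bp after the promoter-table start of Ddx56 (306 bp, rank 32743).

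Annotated snoRNA genes lie inside 4 of the 47 factors: Gnl3, Wdr43, Tsr1 and Ppan. The share of all protein-coding genes holding one was not computed, so this is not read as a trait of the group. Gnl3 and Ppan had a MYC peak in untreated and RANKL-treated cells, Wdr43 with RANKL alone and Tsr1 in no list, and all 4 had MAX in every treatment.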
